A study of Homo sapiens with 3 samples.

Results

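STC1 and STC2 encode the stanniocalcins, a pair of secreted glycoproteins first known from fish, where stanniocalcin lowers blood calcium. The members are all probes that the platform annotation assigns to STC1 or STC2. That gave 2 probes of 47231, 1 for each gene, and 2 genes of the 20039 with a named probe. The genes were chosen by symbol, and the pair was selected on the measured intensities of the same 3 arrays, known from earlier results. The STC1 and STC2 values are therefore a description, with no test.

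The arrays were of MDA-MB-231, a human breast carcinoma line that grew out of a pleural effusion and that the series calls deficient in ASS1, the argininosuccinate synthase that lets cells make their own arginine. ADI-PEG20, arginine deiminase carrying polyethylene glycol, removes arginine from the medium by turning it into citrulline. Cells of 1 array received ADI-PEG20 at 0.3 µg/ml for 48 h. Cells of another received ADI-PEG20 for 24 h, at a dose written as 0.3 with the unit cut short, and then L-arginine at 420 µg/ml for 24 h. Untreated cells were kept for 48 h, and the labels name no vehicle for them. All cells were of the same line and were grown in serum-containing DMEM. Each condition had 1 array, so no spread between cultures was measured and every difference compares these arrays.

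In mammals stanniocalcins act mainly as local factors. Both proteins bind and inhibit pappalysins, the proteases that cleave insulin-like growth factor binding proteins and so release IGF. STC1 transcription is known to be raised by hypoxia through the hypoxia-inducible factor HIF. STC2 transcription is known to be raised by endoplasmic reticulum stress through the kinase PERK and the transcription factor ATF4, and ATF4 also drives the response to a lack of amino acids.

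The sequences below show where the letters of these elements lie in promoters of genes that the results turn on. RefSeq promoter entries (GRCh38.p14) were matched by symbol, which found STC2 of the 2 members. The 250 bases before the start site were searched on both strands for TGATGNAA and ACGTG. TGATGNAA is the core of the composite element bound by ATF4 with C/EBP partners. ACGTG is a form of the core of the hypoxia response element, and its other form, GCGTG, was not searched for. The stretches are written 5′ to 3′ on the minus strand, which is the strand of all 3 genes, and capitals mark the matches. ASNS is shown as the ATF4 target with the highest difference under ADI-PEG20, by its first listed start. ALDOC, aldolase C, is shown as a HIF-induced gene that was lower there.
STC2, chr5:173328415-173328664: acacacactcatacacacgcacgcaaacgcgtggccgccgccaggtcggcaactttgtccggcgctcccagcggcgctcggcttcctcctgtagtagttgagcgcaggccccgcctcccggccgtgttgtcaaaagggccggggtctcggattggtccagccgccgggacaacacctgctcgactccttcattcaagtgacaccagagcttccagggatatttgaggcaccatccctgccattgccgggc
ASNS, chr7:97872409-97872658: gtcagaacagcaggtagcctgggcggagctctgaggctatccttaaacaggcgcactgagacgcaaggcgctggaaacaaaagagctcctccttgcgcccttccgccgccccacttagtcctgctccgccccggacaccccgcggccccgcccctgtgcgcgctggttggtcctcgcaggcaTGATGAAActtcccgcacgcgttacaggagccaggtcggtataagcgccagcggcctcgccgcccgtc
ALDOC, chr17:28576896-28577145: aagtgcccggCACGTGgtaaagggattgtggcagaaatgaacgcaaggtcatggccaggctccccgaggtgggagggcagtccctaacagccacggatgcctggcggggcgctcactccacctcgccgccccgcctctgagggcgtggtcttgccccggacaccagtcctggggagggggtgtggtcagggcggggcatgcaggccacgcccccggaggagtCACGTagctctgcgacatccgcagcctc

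The STC2 stretch held neither run of letters. GCGTG, the form not searched for, does occur in all of the printed stretches, in ASNS on the opposite strand. In ASNS the match TGATGAAA began 68 bases before the start site, and a second ASNS start listed by RefSeq had no match. In ALDOC the letters ACGTG occurred 3 times, 2 of them overlapping on opposite strands of one palindrome. TGATGNAA was present at a listed start of 10 of 41 ATF4 targets with an entry (24.4%), and at one of 3.89% of all 27305 genes with an entry. ACGTG was present for 23 of 32 HIF-induced genes (71.9%) and for 21.7% of all genes. Such matches describe letters in a window and are not measured binding sites.

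STC1 was lower under ADI-PEG20 than on either other array. Its deposited intensity was 412 after ADI-PEG20 for 48 h, 1222 after ADI-PEG20 followed by L-arginine, and 987 in untreated cells. The ADI-PEG20 array was thus the low one, and the array with L-arginine returned lay a little above the untreated one. All 3 values exceeded the background limit of 163, which is the mode of all intensities plus 3 background SDs. Because the RNA was extracted from whole cultures, less STC1 RNA per cell and fewer cells with STC1 RNA cannot be told apart.

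**Figure D1:**
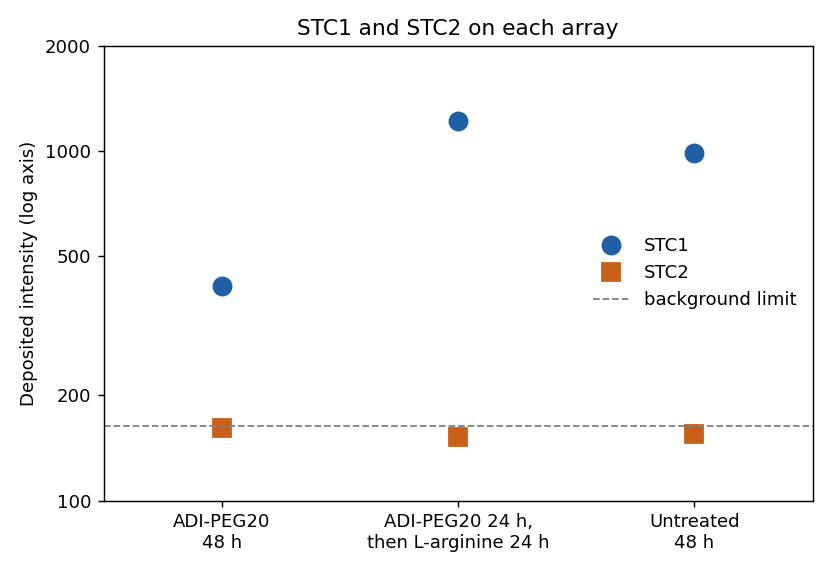
Deposited intensity of the STC1 and STC2 probes on the 3 arrays, on a log axis, with the background limit of 163 as a dashed line. Each point is 1 array. STC1 lies at 412 under ADI-PEG20, 1222 after L-arginine and 987 in untreated cells, and all 3 STC2 points lie below the line. Different probes differ in brightness for the same RNA amount, so the 2 genes are not to be compared in height.

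Differences are given as the log2 of background-corrected intensity, the first-named array minus the second. STC1 differed by -1.57 between ADI-PEG20 and untreated cells, which is 2.98-fold lower, or 2.40-fold lower without background correction. Of 11142 genes above background on either array, 2.11% were at least 2-fold lower and 1.75% at least 2-fold higher. These shares are the background for STC1, which was chosen with this contrast known. Among 10026 genes above background on both arrays, 18 had a difference as low as that of STC1 or lower, STC1 included. The only error these arrays offer is the one between probes of the same gene, with an SD of 0.22 for this comparison over 2542 genes with 2 probes. It covers probes and not cultures, and STC1 itself had a single probe, so its own value has no second measurement.

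After the return of L-arginine, STC1 was 1.92 above the array with continued ADI-PEG20, or 3.79-fold higher. In that comparison 2.06% of 11139 genes passed 2-fold upward and 1.86% downward, and the error between probes was 0.22. Of 10027 genes above background on both arrays, 5 had a difference as high as that of STC1 or higher, STC1 included. This comparison and the first share the ADI-PEG20 array, so a low STC1 value on that array enters both.

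Against untreated cells, the array with L-arginine returned had STC1 higher by 0.35, or 1.27-fold. That is below the 2-fold threshold, which 0.37% of 11090 genes passed upward and 0.325% downward. The error between probes was 0.19, and 550 of 10096 genes above background on both arrays had a difference as high or higher. With no replicate culture, this small difference has no spread between samples to be set against.

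STC2 gave no signal above background on any array. Its intensity was 162 under ADI-PEG20, 152 after L-arginine and 155 in untreated cells, below the limit of 163 throughout. In units of the background SD, these values lay 2.83, 1.74 and 2.11 above the mode. The ADI-PEG20 value was the highest and came close to the limit. With the limit set at 2 background SDs, a choice made after the values were seen, STC2 would be above it on the arrays of ADI-PEG20 and of untreated cells and below it after L-arginine. No fold is given for STC2, since both sides of each comparison were below background. A single probe that is not above background limits what this platform can show and does not show that the STC2 transcript is absent. Of the 20039 genes, 8580 were likewise above background on no array.

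The genes known to respond to the regulators of STC1 and STC2 were then placed beside them. HIF-induced genes, a list of 37 without STC1, had 34 members with a probe and 32 above background. Of these 32, 26 were lower under ADI-PEG20 than in untreated cells and 6 were higher, with a median difference of -0.31. The median over all genes was -0.00285. When the arrays were also scaled to reference genes, on top of the deposited normalization, 22 were lower and 10 higher, with a median of -0.17. A difference of 2-fold or more downward was reached by 2 of the 32, against 2.11% of all genes, and none was 2-fold higher, against 1.75%. The STC1 difference of -1.57 lay below all 32 members, whose lowest was -1.26. It also lay below all 12 reference genes and all 44 ATF4 targets above background. Its place below the list therefore says nothing particular about HIF-induced genes. The members of a list are not replicates.

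The 2 members past 2-fold were PFKFB4 and ALDOC. PFKFB4, which sets the level of a phosphofructokinase activator, had 390 under ADI-PEG20, 936 after L-arginine and 766 in untreated cells, with a difference of -1.26 for ADI-PEG20 against untreated cells. ALDOC had 301, 603 and 533 in the same order of arrays, a difference of -1.20. The ADI-PEG20 array was the low one for both, as it was for STC1. BNIP3, a mitochondrial protein of mitophagy, differed by -0.96 and ENO2, an enolase, by -0.85. The glycolytic enzymes of the list were spread widely, with ENO1, another enolase, at -0.07 and HK2, a hexokinase, at -0.10. A second HK2 probe gave 0.14. MXI1, a repressor that competes for MAX, went the other way at 0.96, but it had 257 on the ADI-PEG20 array, 183 after L-arginine and 191 in untreated cells, close to background, and of its 3 other probes 2 were below background on all arrays. The other one was above background on the ADI-PEG20 array and differed by 0.47.

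After the return of L-arginine, 28 of the 32 HIF-induced genes were above their level under continued ADI-PEG20, with a median of 0.54 and 25 higher when scaled to reference genes. At least 2-fold higher were 8 of them, against 2.06% of all genes, led by PFKFB4 at 1.60 and ALDOC at 1.42. MXI1, at -1.14, was the 1 member at least 2-fold lower, against 1.86% of all genes. The STC1 difference of 1.92 was above all 32, as it was above all 12 reference genes and all 44 ATF4 targets, so this too is not particular to the list. Against untreated cells 27 of the 32 were higher, or 25 when scaled to reference genes, with a median of 0.23 and none past 2-fold, against 0.37% of all genes upward and 0.325% downward. Here STC1 at 0.35 lay within the list, with 12 members above it and 20 below.

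**Figure D2:**
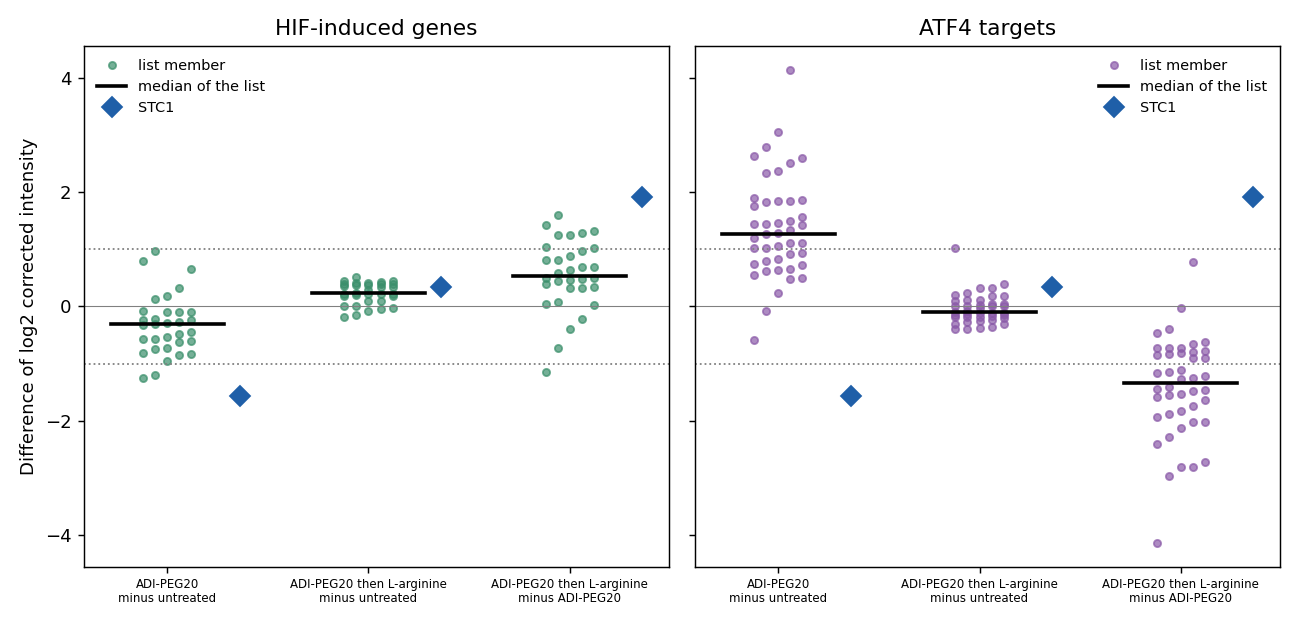
Differences of log2 corrected intensity in the 3 comparisons for HIF-induced genes (left, 32 members) and ATF4 targets (right, 41 to 44 members). Circles are genes, black bars are list medians, diamonds are STC1, and dotted lines mark 2-fold. STC1 at -1.57 lies below all HIF-induced genes for ADI-PEG20 against untreated cells and at 1.92 above all of them for L-arginine return against ADI-PEG20. In the same comparisons it also lies below and above all ATF4 targets.

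The genes of the factors themselves differed in direction. HIF1A, the oxygen-regulated subunit of HIF, had 1053 under ADI-PEG20, 828 after L-arginine and 879 in untreated cells, a difference of 0.30 for ADI-PEG20 against untreated cells, and its other probes gave 0.54 and 0.45. EPAS1, which encodes the related subunit HIF-2 alpha, had 2280, 1164 and 1200 in the same order, a difference of 1.0. For both genes the ADI-PEG20 array was the high one. ARNT, which encodes the shared beta subunit of HIF, went the other way, near background, with 156 under ADI-PEG20, 160 after L-arginine and 184 in untreated cells. It was above the limit in untreated cells alone, and was at least 1.51-fold lower under ADI-PEG20 than there. The proteins of HIF1A and EPAS1 are governed largely by their stability, which arrays do not measure.

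ATF4 targets were higher under ADI-PEG20, while STC2 stayed below background. The list held 52 genes without STC2, of which 48 had a probe and 44 were above background. The median difference was 1.27, 42 members were higher and 29 were at least 2-fold higher, against 1.75% of all genes. Setting the members that were dim on 1 of the arrays to their bound gave a median of 1.13, with 28 past 2-fold. ASNS, asparagine synthetase, had 9722 under ADI-PEG20, 665 after L-arginine and 664 in untreated cells, which is 4.14 for ADI-PEG20 against untreated cells. CTH, an enzyme of cysteine synthesis, followed at 3.05, PSAT1 and PHGDH of serine synthesis at 2.79 and 2.61, and PCK2, mitochondrial phosphoenolpyruvate carboxykinase, at 2.51. After the return of L-arginine, 43 of the 44 were below their level under continued ADI-PEG20, with a median of -1.34 and 28 at least 2-fold lower, against 1.86% of all genes. Against untreated cells 18 of 41 were then higher and 23 lower, with a median of -0.09. These lists were drawn up with earlier results of the same arrays known, which had already shown ATF4 targets higher.

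STC2 was not the sole ATF4-linked gene below background. ALDH1L2, CBS, FGF21 and INHBE, which make up the other 4 of the 48, were also above the limit on no array. ATF4 had 14772 under ADI-PEG20, 7147 after L-arginine and 7338 in untreated cells, a difference of 1.02. A second ATF4 probe gave 1.34 and another, dim one 0.15. EIF2AK3, which encodes PERK, had 239 under ADI-PEG20, 265 after L-arginine and 261 in untreated cells, and differed by -0.24 between ADI-PEG20 and untreated cells.

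**Figure D3:**
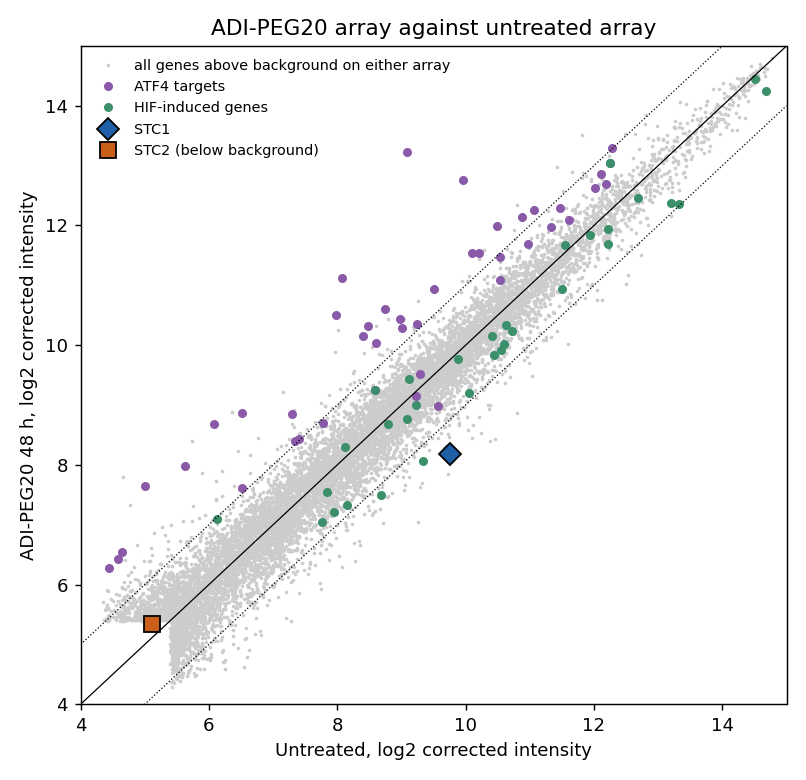
Level of each gene on the ADI-PEG20 array (vertical) against the untreated array (horizontal), as log2 corrected intensity. The solid line is equality and the dotted lines are 2-fold. STC1 lies below the lower dotted line, ATF4 targets lie mostly above equality, and STC2 sits in the background region.

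To find genes with a pattern like that of STC1, the differences of ADI-PEG20 and of L-arginine return, each against untreated cells, were taken as 2 coordinates. The Euclidean distance to STC1 was then ranked over 9847 genes above background on all 3 arrays. Genes with provisional names, such as unnamed loci and open reading frames, were passed over in naming the nearest. Nearest of the rest was DENND2A, of a family of regulators of RAB proteins, with 318 under ADI-PEG20, 876 after L-arginine and 745 in untreated cells, at a distance of 0.11. MXD3, a MAX partner, had 186, 379 and 335 in that order of arrays, at a distance of 0.15. SNRPA, the A protein of the U1 spliceosome particle, MANCR, a long noncoding RNA, and SPC24 of the kinetochore came next, at 0.19, 0.27 and 0.30. Each of these 5 was lowest on the ADI-PEG20 array and highest after L-arginine, an order that follows from choosing them by nearness to STC1. None belongs to the HIF-induced list. With 32 genes of that list above background beside 9847 ranked, this says nothing about the list. The ranking covers 3 arrays and 2 differences with a shared untreated array, so it is a description of likeness only. No likeness is given for STC2, whose differences lie within background.

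**Figure D4:**
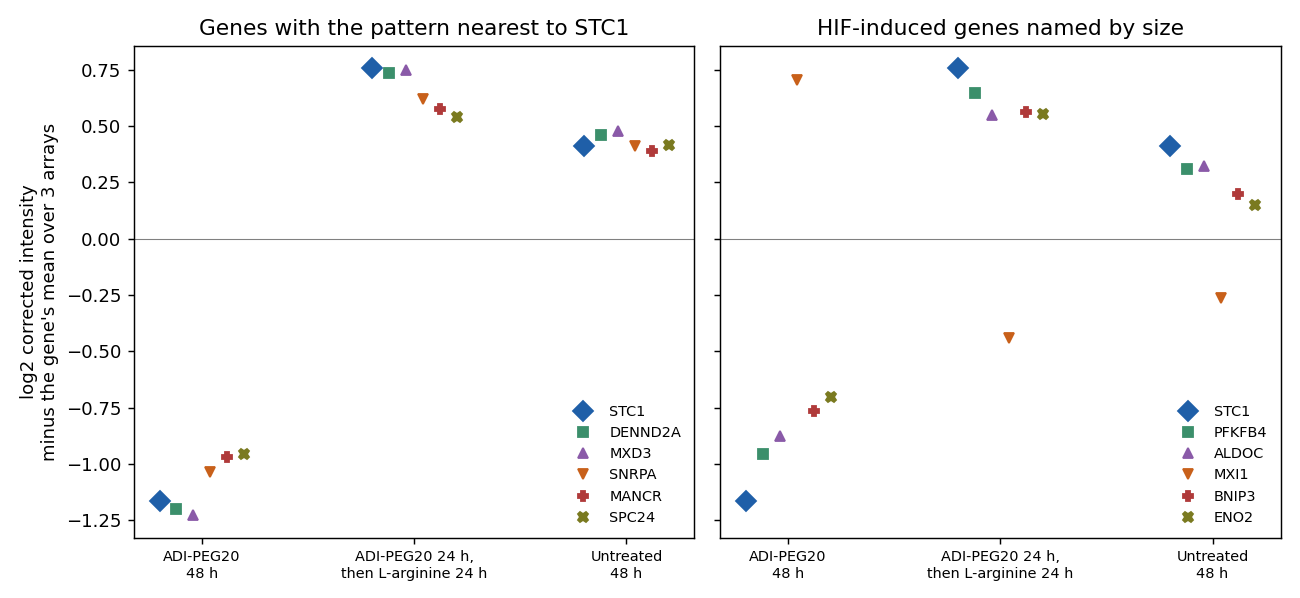
log2 corrected intensity on each array minus the gene's own mean over the 3 arrays, for STC1 with its 5 nearest genes, provisional names passed over (left), and with the 5 HIF-induced genes with the largest difference under ADI-PEG20 (right). Each symbol is 1 gene on 1 array, shifted sideways so that symbols do not overlap. All genes but MXI1 are lowest on the ADI-PEG20 array.

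The proteins on which stanniocalcins act were then examined. Of 16 genes of the pappalysin and IGF axis, 10 exceeded background on some array, and none of the 10 was 2-fold apart between ADI-PEG20 and untreated cells or in either other comparison. With 1.75% of all genes 2-fold higher and 2.11% lower under ADI-PEG20, a count of 0 among 10 genes does not set the axis apart from the rest. The median difference for ADI-PEG20 against untreated cells was 0.12, with 7 higher and 3 lower. PAPPA, a pappalysin that both stanniocalcins inhibit, was near the limit at 173 under ADI-PEG20, 171 after L-arginine and 190 in untreated cells. The other pappalysin gene PAPPA2 was above background on no array, as were IGF1, IGF2, IGF1R, IGFBP2 and IGFBP5. PRG2, whose proform is another pappalysin inhibitor, was at 166, 175 and 164 in the same order, hardly above the limit.

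IGFBP4, the main substrate of PAPPA, had 9308 under ADI-PEG20, 11015 after L-arginine and 11871 in untreated cells, a difference of -0.36 for ADI-PEG20 against untreated cells. IGFBP3, the major IGF carrier of serum, had 1260, 1051 and 966 in that order, a difference of 0.43, and its second probe gave 0.65. So the ADI-PEG20 array was the low one for IGFBP4 and the high one for IGFBP3. IGFBP1 and IGFBP6 differed by 0.03 and 0.19. On the receptor side IGF2R, which clears IGF2, differed by 0.39, and the adaptors IRS1 and IRS2 by 0.40 and 0.63. INSR, the insulin receptor, was at least 1.35-fold lower under ADI-PEG20 than in untreated cells, where alone it was above the limit.

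STC2 is also known to restrain store-operated calcium entry through STIM1, the calcium sensor of the endoplasmic reticulum. All 6 genes of that system exceeded background on some array. ORAI1, the plasma membrane channel, had 247 under ADI-PEG20, 348 after L-arginine and 358 in untreated cells, a difference of -0.91 for ADI-PEG20 against untreated cells and of 0.85 for L-arginine return against ADI-PEG20. It was thus low on the ADI-PEG20 array, short of 2-fold. STIM1 differed by -0.22, SARAF, an inactivator of the channel, by -0.19, ORAI3 by -0.15 and STIM2 by 0.20, or -0.41 on a second STIM2 probe. ORAI2 was below background in untreated cells and at least 1.11-fold higher under ADI-PEG20.

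**Figure D5:**
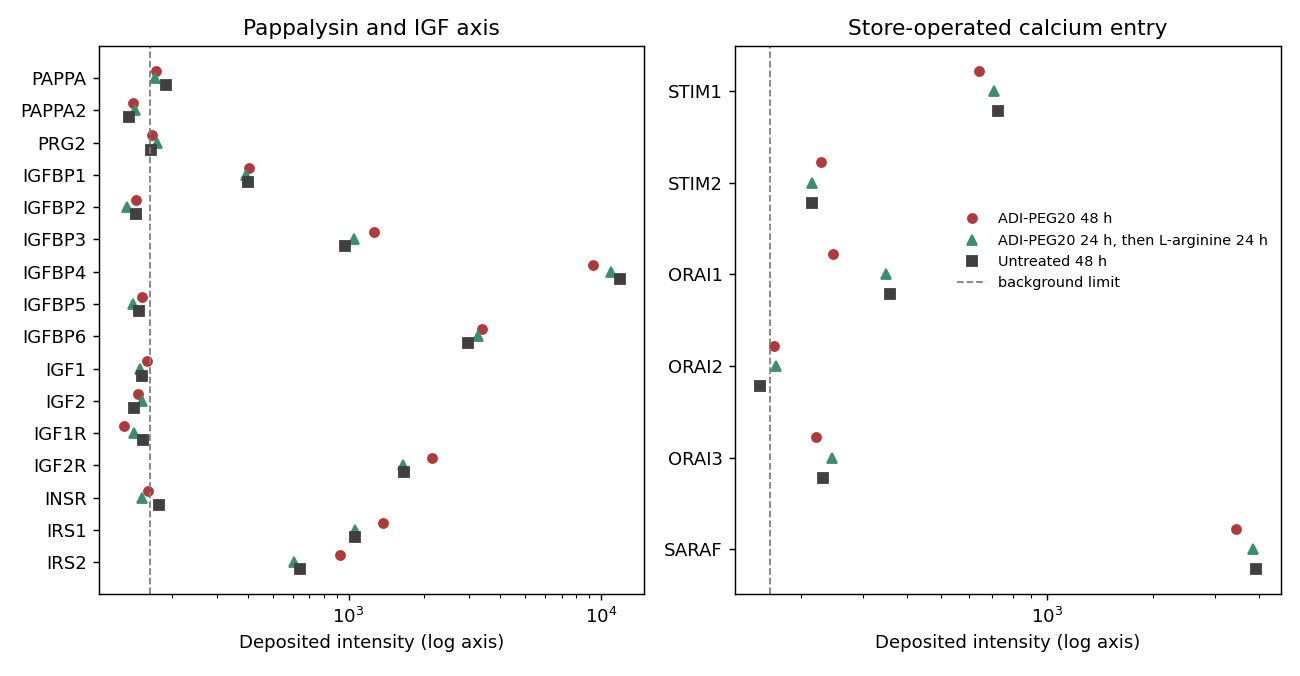
Deposited intensity on a log axis for the 16 genes of the pappalysin and IGF axis (left) and the 6 of store-operated calcium entry (right). Each symbol is 1 array and the dashed line is the background limit of 163. The 3 symbols of a gene lie close together except for genes such as ORAI1, with 247 under ADI-PEG20, 348 after L-arginine and 358 in untreated cells.

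The cells were checked against markers of their type. Of 11 basal and mesenchymal markers with a probe, 8 were above background on all arrays, VIM, CD44, CAV1 and AXL among them, while FN1 and SPARC were above it on none. Of all 20039 genes, 9848 were above background on all arrays. Of 15 luminal markers, 7 were above it on all arrays, which is near the share over all genes. These were the keratin genes KRT8, KRT18 and KRT19, the junction genes CDH1 and CLDN4, EPCAM and ERBB3. The hormone receptor genes ESR1 and PGR were above background on none. KRT8 had 1577 under ADI-PEG20, 2036 after L-arginine and 2113 in untreated cells. CDH1, the epithelial cadherin, had 374 under ADI-PEG20, 293 after L-arginine and 245 in untreated cells, a difference of 1.03 for ADI-PEG20 against untreated cells. It was the 1 luminal marker of 9 past 2-fold there, against 1.75% of all genes upward. Of 17 markers of leukocytes, endothelium and fibroblasts, 6 were above background under ADI-PEG20, 5 after L-arginine and 5 in untreated cells. Of all 20039 genes, 9848 were above it on all arrays and 11459 on at least 1. CD68 was the brightest of the 17 markers, with 2990 under ADI-PEG20, 3024 after L-arginine and 3100 in untreated cells. CD14, LUM and PDGFRB were also above the limit on all 3 arrays, and PECAM1 and COL1A2 on 2. The remaining markers were above it on none, namely PTPRC, CD3E, LYZ and TYROBP of leukocytes, VWF, CDH5, KDR and TEK of endothelium, and COL1A1, COL3A1 and DCN of fibroblasts.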

How the data were processed

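Per the labels' protocols, RNA was labelled with biotin for Illumina arrays, which read 1 colour. The treatment label set the group of each sample. The deposited values are linear intensity for 47231 probes. GenomeStudio is listed in the submitters' processing notes; the sources used here do not say how the values were normalized. The 3 columns share a lowest value of 106, a highest of 28717 and medians of 149, a common distribution as quantile normalization gives, so scale and centring were read from the values and a change in total RNA cannot be seen. A second deposited table, with values before normalization, was left out, since the names of its 6 value columns fit none of the sample labels alone.

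The intensity was corrected by normexp, a model of exponential signal plus normal background, with the mode of 136.87 as background mean, the SD of 8.73 below the mode and an exponential mean of 425. The log2 was taken after adding an offset of 16, in Python 3.11.15 with NumPy 2.4.6 and SciPy 1.17.1. A probe was above background past 3 background SDs, a limit of 163.07, as 38.1% to 38.2% of probes were on each array. Symbols came from the platform annotation for 30113 probes with 1 gene, 8 had several genes and 17110 none listed, and 11 symbols were updated through RefSeq. A gene was represented by its brightest probe, and entered a comparison if above background on either array. For a gene above background on 1 array of a pair, the fold is a lower bound ("at least"), for which the dim side is set to the faintest level that exceeds background on that array, or to its own level if higher.

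No test was made, since each condition has 1 array, and a difference of 2-fold was counted as called. The number of arrays limits the precision. The steps were tested on simulated data. Members, gene lists and named genes were chosen with earlier results of these data known. Named were STC1 and STC2, the members above background of the pappalysin and calcium entry lists, ATF4, HIF1A, EPAS1 and EIF2AK3, the 5 members with the largest difference under ADI-PEG20 of the HIF-induced and ATF4 lists, and the 5 genes nearest to STC1, provisional names passed over. Other genes were named after their values were seen. Alternatives were no background correction, another offset, the mean over probes, other scalings and other background limits. No genome coordinates of probes are given.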

Additional observations from a re-analysis of the deposited data

How the results depend on the processing

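STC1 kept its direction in all 3 comparisons under the 7 alternatives run. Not all of them could change it. The mean over probes, the rule of all 3 arrays above background and the limit at 5 background SDs left its values as they were. STC1 has 1 probe and exceeded those limits on every array. Its difference lay between -1.57 and -1.26 for ADI-PEG20 against untreated cells, between 0.27 and 0.35 for L-arginine return against untreated cells and between 1.57 and 1.92 for L-arginine return against ADI-PEG20. It moved by more than the error between probes without background correction, to -1.26 in the first and 1.57 in the third comparison, and to 1.69 in the third when scaled to reference genes. The 7 alternatives leave the single STC2 probe's intensity as it is and none lowers the limit, so they could not change its 0 arrays above background. With a limit at 2 background SDs, added after seeing the data, it was above on 2 arrays. No STC2 difference was recomputed. Other probes of the members could not be run, since each member has 1 probe. The table before normalization was not run, since its column names fit none of the sample labels alone. Its detection p-values were therefore not read for STC2.

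Scaling to reference genes shifted all differences by 0.15, -0.08 and -0.23 in the 3 comparisons in that order. For ADI-PEG20 against untreated cells, 195 genes were at least 2-fold higher and 235 lower. These were 52 and 50 without background correction, 88 and 102 with an offset of 50, and 328 and 131 when scaled to reference genes, so that the balance between higher and lower turned over, and 110 were higher among genes above background on all 3 arrays. For L-arginine return against untreated cells the 41 higher and 36 lower became 0 and 0 without background correction, 1 and 1 with an offset of 50, and 26 and 23 with the mean over probes. They became 24 and 59 when scaled to reference genes, 2 and 1 for genes above background on all arrays, and 10 and 10 with a limit at 5 background SDs. For L-arginine return against ADI-PEG20 the 229 higher and 207 lower became 48 and 58 without background correction, 99 and 94 with an offset of 50, 98 and 519 when scaled to reference genes, and 152 and 131 for genes above background on all arrays.

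For HIF-induced genes under ADI-PEG20, 1 was 2-fold higher when scaled to reference genes and 0 were 2-fold lower without background correction. For L-arginine return against ADI-PEG20 their median was 0.31 when scaled to reference genes, 5 were 2-fold higher without background correction, and the 1 that was 2-fold lower became 0 without that correction, with an offset of 50 and with the mean over probes. The median of ATF4 targets without background correction was 0.99 under ADI-PEG20 and -1.10 for L-arginine return against ADI-PEG20, where it was -1.57 when scaled to reference genes. The 1 ATF4 target 2-fold higher after L-arginine than in untreated cells, SESN2, became 0 without background correction, with an offset of 50, when scaled to reference genes, for genes above background on all arrays and with a limit at 5 SDs. The pappalysin and IGF axis had a median of -0.30 when scaled to reference genes and -0.29 with a limit at 5 SDs for L-arginine return against ADI-PEG20. The median of the calcium entry genes there was 0.17, and -0.06 when scaled to reference genes. No paired analysis was possible because each condition has 1 array.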

Other observations

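VEGFA, a vascular growth factor, and DDIT4, an inhibitor of mTORC1 signalling, were on both the HIF-induced and the ATF4 lists, and were picked out here after their values were seen. VEGFA had 728 under ADI-PEG20, 486 after L-arginine and 506 in untreated cells, a difference of 0.66 for ADI-PEG20 against untreated cells, and another VEGFA probe above background gave 0.76. DDIT4 had 8577, 6520 and 4999 in the same order, a difference of 0.79. Both thus lay above the untreated level under ADI-PEG20, opposite to STC1. So did MXI1, ERO1A, KDM3A and BHLHE40, at 0.96, 0.32, 0.18 and 0.13, which are HIF-induced genes not on the ATF4 list. The remaining 26 of the 32 HIF-induced genes were lower. Whether a place on the ATF4 list goes with the direction was not tested.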
